A study of Homo sapiens with 2 samples.

Results

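FGF receptors and genes that respond to ERK were described in human enteric neural crest cells (ENCCs) and in the cell types that grew beside them. The set held 10 genes of the 33694 gene names in the count matrices, and all 10 were found in both. By role they were 3 receptors (FGFR1, FGFR2 and FGFR3), 4 feedback inhibitors (SPRY1, SPRY2, SPRY4 and DUSP6) and 3 transcription factors (ETV1, ETV4 and ETV5). They were chosen by name, with earlier results of these data already known. The inhibitors and transcription factors are called the 7 response genes below.

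ENCCs are the precursors of the neurons and glia of the gut, and the cultures here started from human embryonic stem cells of the line H9. The day 10 library came from an adherent monolayer. Its media up to then held SB431542 (an inhibitor of TGF-beta receptors) and CHIR (an activator of WNT signalling), the latter at doses below the later 3 µM. They also held BMP4 at the start and retinoic acid in the last days, with no FGF listed. The day 15 library came from enteric crestospheres, the spheres that float free once the monolayer has been detached and moved to a medium with FGF2 at 10 ng/ml and CHIR at 3 µM. Each stage was 1 droplet-based 3′ RNA library (n = 1) that, by the submitters' description, pooled 2 biological repeats, which were not separated here. Differences in age, culture, medium, depth and library cannot be told apart, no test between stages was possible, and all intervals below are exact 95% intervals that cover counting error only.

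FGF ligands outside the cell bind FGF receptors, which are tyrosine kinases, and one route from these receptors runs through RAS, RAF and MEK to the kinase ERK. Active ERK induces its own brakes, among them the Sprouty proteins and DUSP6, a phosphatase that removes phosphate from ERK. It also induces the related ETS transcription factors ETV1, ETV4 and ETV5, so these transcripts are widely used as a readout of the pathway, although other receptors signal through ERK too. In neural development, FGF signalling is known for its part in patterning the neural plate and in the induction of the neural crest.

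One way in which ERK reaches these genes is through CIC, a repressor that binds octamers of the form TGAATGAA, TGAATGGA, TCAATGAA or TCAATGGA and is relieved by ERK. The RefSeq promoter windows (250 bases before to 50 after a transcript start, GRCh38.p14) gave 19 windows for 7 of the 10 genes, and FGFR1, ETV4 and ETV5 were not matched. The windows were searched on both strands for the 4 octamers and for CCGGAAG, a core of ETS factor sites. Both windows that held an octamer are shown, 5′ to 3′ on the gene's strand with the octamer in capitals; they lie at chr12:89352452-89352751 for DUSP6 and at chr7:13991376-13991675 for ETV1, both on the minus strand.
DUSP6: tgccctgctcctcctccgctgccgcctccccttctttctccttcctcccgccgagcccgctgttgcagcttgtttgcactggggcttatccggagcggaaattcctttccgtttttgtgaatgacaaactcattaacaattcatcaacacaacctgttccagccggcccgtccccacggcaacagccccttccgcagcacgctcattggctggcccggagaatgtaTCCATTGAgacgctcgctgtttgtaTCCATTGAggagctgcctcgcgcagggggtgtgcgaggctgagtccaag
ETV1: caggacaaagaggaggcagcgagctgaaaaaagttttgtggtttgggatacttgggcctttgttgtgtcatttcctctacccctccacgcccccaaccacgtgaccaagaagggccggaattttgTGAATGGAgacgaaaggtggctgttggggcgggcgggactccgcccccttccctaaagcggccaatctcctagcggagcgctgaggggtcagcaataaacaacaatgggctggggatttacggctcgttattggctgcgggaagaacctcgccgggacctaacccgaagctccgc
The DUSP6 window held 2 copies of TCCATTGA, the reverse complement of TCAATGGA, which was present in 0.510% of the 35116 windows of all genes. The ETV1 window held TGAATGGA, present in 1.03% of all windows, and 1 window of SPRY1 held CCGGAAG, present in 10.3%. Any of the 4 octamers was found in 3.77% of all windows. A match describes letters and not a bound site, and the other windows only lacked these letters within their 300 bases.

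Outside these windows, GENCODE 29 (GRCh38) places FGFR2 at chr10:121478334-121598458, FGFR3 at chr4:1793293-1808872, SPRY1 at chr4:123396795-123403760, SPRY2 at chr13:80335976-80340951 and SPRY4 at chr5:142310427-142326455. DUSP6 lies at chr12:89347232-89353271, ETV1 at chr7:13891228-13991425, ETV4 at chr17:43527844-43579620 and ETV5 at chr3:186046308-186110318. ETV5 shares exon bases with DGKG on the same strand, FGFR1 with LETM2 and ETV4 with DHX8 on opposite strands, and the strand setting of the counting was not given in the sources used here. DUSP6 shares exon bases with AC024909.2, and FGFR1 also with AC087623.1, both on opposite strands and both without counts here. The levels of all these genes are uncertain to that extent, and those of the counted partners are given beside the results they touch.

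The day 10 library held 9627 cells and 70488169 unique molecular identifiers (UMIs, each standing for 1 captured transcript), and the day 15 library held 6320 cells and 84976253 UMIs. The study's quality limits kept 7295 and 5336 of these cells, and types, subclusters and phases exist only for them. ENCCs were 4921 of the kept cells at day 10 and 4934 at day 15, with a median of 7004 and 11082 UMIs. Levels are given as CPM, the UMIs of a gene per 1000000 UMIs of the same cells. The labelled types were checked against markers, and day 10 ENCCs, neuro-epithelial progenitors (NEP), cranial placode cells (CP) and non-neural ectoderm (NNE) had no more markers of another type than of their own among their 10 leading genes, with NNE holding 0 of either there but 8 of its 9 markers above 3 UMIs. The same held at day 15 for ENCCs, the CP1 placode cluster and the mesenchymal (Mes) cluster. It did not hold for the day 15 cluster labelled NEP, where the epithelial keratins KRT18 and KRT19 were among the leading genes and no NEP marker was, nor for CP2, so both are called by their labels. Over whole marker lists, the CP list summed to 3790 CPM in CP2, 3070 CPM in CP1 and 30.3 CPM in day 15 ENCCs. The NEP list summed to 458 CPM in CP2. In the day 15 cells labelled NEP, the NEP list summed to 357 CPM and the NNE list to 944 CPM, against 28.1 and 12.7 CPM in ENCCs. Day 10 NEP cells also held the NNE list, at 1410 CPM, beside 1490 CPM of the NEP list. CP2 and Mes held 43 and 47 cells, and their values are descriptive at best. The libraries shared 102 cell barcodes, no doublet caller was run, and leaving out the 5% of kept cells with the most UMIs changed none of the member counts given below for the stages.

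The receptors differed between the stages in 2 ways. FGFR1, which was detected in every class of both libraries, was level across the ENCCs of both stages, whereas FGFR2 and FGFR3 were lower at day 15. FGFR1 stood at 24.4 CPM (22.8 to 26.0, 901 UMIs) in day 10 ENCCs and at 24.3 CPM (23.0 to 25.6, 1355 UMIs) in day 15 ENCCs, and the fold of day 15 over day 10 was 0.995 (0.914 to 1.08). LETM2, which overlaps it, was at 1.22 CPM and 1.93 CPM.

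FGFR2, the receptor best known from epithelia and neural progenitors, was at 5.39 CPM (4.66 to 6.19, 199 UMIs) in day 10 ENCCs and at 0.412 CPM (0.261 to 0.618, 23 UMIs) in day 15 ENCCs. The intervals were far apart, and day 10 was 13.1-fold higher (8.47 to 21.1). FGFR3 was rare in ENCCs at both stages, with 0.514 CPM (19 UMIs) at day 10 and 0.0895 CPM (5 UMIs) at day 15.

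All 7 response genes were higher in day 15 than in day 10 ENCCs, with intervals that did not overlap. Among the inhibitors, DUSP6 was at 8.90 CPM (7.97 to 9.92, 329 UMIs) at day 10 and at 31.1 CPM (29.7 to 32.6, 1739 UMIs) at day 15, which was 3.50-fold higher (3.11 to 3.95). SPRY2, a Sprouty that restrains signalling from receptor to ERK, gave 182 UMIs (4.93 CPM, 4.24 to 5.70) in the earlier and 640 UMIs (11.5 CPM, 10.6 to 12.4) in the later ENCCs, 2.33-fold higher (1.97 to 2.76). SPRY1 and SPRY4, of the same family, were low in both libraries. SPRY1 stood at 0.812 and 1.72 CPM, a fold of 2.12 (1.39 to 3.31), and SPRY4 went from 7 UMIs (0.189 CPM) to 101 UMIs (1.81 CPM), a fold of 9.55 (4.47 to 24.3).

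Among the transcription factors, ETV4 and ETV5 showed wider gaps than ETV1. ETV5 was at 1.33 CPM (0.981 to 1.75, 49 UMIs) in day 10 ENCCs and at 16.2 CPM (15.2 to 17.3, 907 UMIs) in day 15 ENCCs, 12.2-fold higher (9.18 to 16.7). DGKG, which shares exon bases with ETV5, was lower at day 15, with 0.0537 CPM against 0.487 CPM. ETV4 gave 4 UMIs (0.108 CPM) at day 10 and 211 UMIs (3.78 CPM) at day 15, a fold of 34.9 with a wide interval from 13.4 to 129. Its neighbour DHX8 was at 8.28 and 10.6 CPM. ETV1 was at 3.49 CPM (2.91 to 4.15, 129 UMIs) at day 10 and at 10.5 CPM (9.63 to 11.3, 584 UMIs) at day 15, 3.00-fold higher (2.47 to 3.65).

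**Figure D1:**
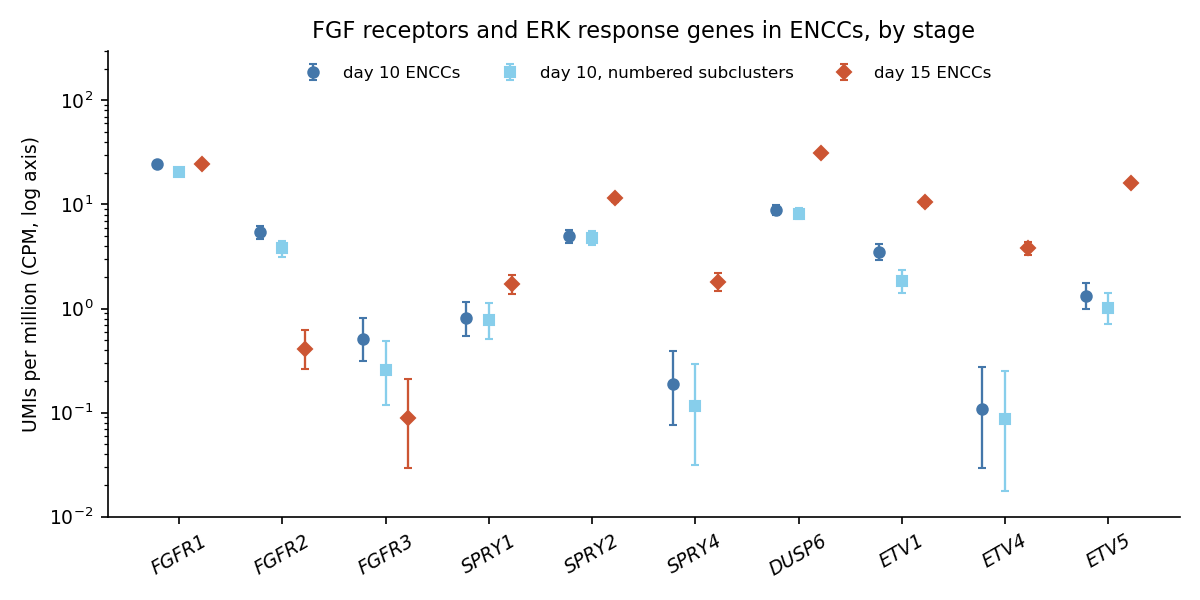
Level of each gene in ENCCs, in CPM on a log axis, for all day 10 ENCCs, for the day 10 ENCCs in numbered subclusters and for all day 15 ENCCs; points are values of 1 library and bars exact 95% Poisson intervals. FGFR1 sits near 24 CPM at both stages, FGFR2 and FGFR3 are lower at day 15 and the 7 response genes are higher.

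These gaps were set against all genes by a fixed rule, a 2-fold difference on CPM + 1 among genes with at least 5 CPM at 1 of the stages. Of the 9257 genes that passed the filter, 8.26% were 2-fold higher and 6.02% were 2-fold lower at day 15. Of the 10 members 6 passed the filter. SPRY2, DUSP6, ETV1 and ETV5 were among the higher genes, with log2 ratios of 1.07, 1.70, 1.35 and 2.89, FGFR2 was among the lower ones at -2.18, and FGFR1 stood at -0.01. FGFR3, SPRY1, SPRY4 and ETV4 fell below the filter and were not counted. The median log2 ratio of all 9257 genes was -0.14, and with TMM scaling it was 0.05, a shift that left the calls of these 6 genes as they were but gave 10.4% of genes as higher and 4.20% as lower.

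**Figure D2:**
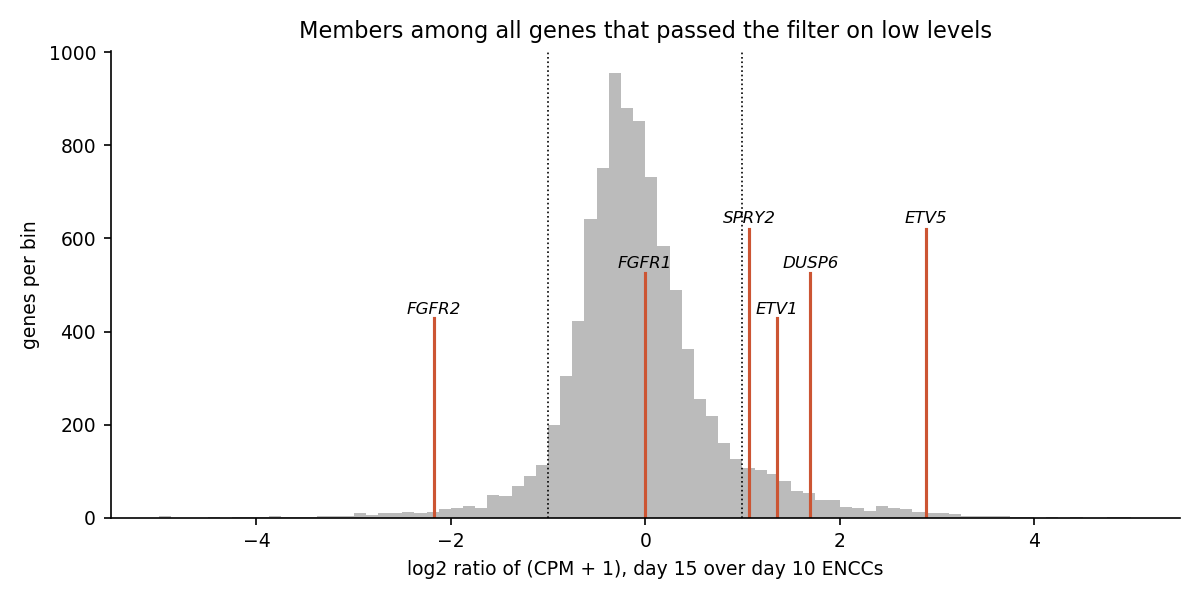
Distribution of the log2 ratio of CPM + 1, day 15 over day 10 ENCCs, over the 9257 genes that passed the filter, as genes per bin; dotted lines mark 2-fold and red lines the 6 members that passed, whose heights only separate the names. FGFR2 lies in the left tail at -2.18, FGFR1 near the centre, and SPRY2, ETV1, DUSP6 and ETV5 in the right tail.

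Summed over the 7 response genes, day 10 ENCCs held 19.8 CPM (18.4 to 21.2) and day 15 ENCCs 76.6 CPM (74.3 to 78.9), a ratio of 3.88 (3.58 to 4.20). DUSP6 gave 1739 of the 4278 UMIs in the day 15 sum. Between the whole libraries, where the makeup of cell types also enters, the ratio of the sum was 2.78 (2.66 to 2.91). ETV1 was the exception there, since its level was 14.6 CPM over all day 10 cells and 13.9 CPM over all day 15 cells. FGFR1 was lower over all cells at day 15, at 33.7 against 52.9 CPM. The cells removed by the quality limits enter these sums, and they held more response gene UMIs per total than the kept cells, with 48.6 against 32.5 CPM at day 10 and 133 against 86.3 CPM at day 15. The removed cells were not alike in the 2 libraries. Their median depth was 3679 UMIs at day 10, below the 7101 of kept cells, but 21367 at day 15, above the 11089 of kept cells.

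The ETV1 and FGFR2 values of day 10 ENCCs drew on a small part of the class. Of the 4921 day 10 ENCCs, 256 carried the ENCC cell type in the metadata but the subtype "Non-NC", as the other types did, and so belonged to none of the numbered subclusters ENC 1 to ENC 4. In these 256 cells the receptors stood at 88.0 CPM for FGFR1, 30.2 CPM for FGFR2 and 4.45 CPM for FGFR3, against 20.3, 3.78 and 0.259 CPM in the numbered ENCCs. ETV1 was at 28.9 CPM (22.3 to 36.8) in them and at 1.84 CPM (1.42 to 2.36) in the numbered ENCCs, and 65 of the 129 ETV1 UMIs of day 10 ENCCs came from them. DUSP6 (20.0 against 8.18 CPM) and ETV5 (6.22 against 1.01 CPM) were also higher in the 256 cells.

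Markers of other types moved with these values. The NEP list of 9 markers summed to 1190 CPM in the 256 cells, to 47.2 CPM in the numbered ENCCs and to 1490 CPM in NEP cells, with 5 of 9 above 3 UMIs in the 256 cells and LHX2, FEZF1 and SIX3 at 0. The NNE list summed to 1020, 56.1 and 1410 CPM in the same order, with 6 of 9 above 3 UMIs and KRT5 at 0, and the ENCC list of 9 markers to 815, 2390 and 463 CPM, with all 9 above 3 UMIs.

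Without the 256 cells, and the 27 such cells of day 15, the folds of all 7 response genes between the stages were larger. The summed ratio was 4.55 (4.17 to 4.97), ETV1 was 5.64-fold higher at day 15 (4.35 to 7.42) and ETV5 16.1-fold (11.5 to 23.2). FGFR1 was then 1.20-fold higher at day 15 (1.09 to 1.31). FGFR2 remained higher at day 10, by 9.12-fold (5.82 to 14.9), but its 3.78 CPM lay under the filter, so that no member was counted as lower. For FGFR3 the interval of the fold then included 1 (day 10 over day 15, 2.88, 0.867 to 10.9).

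**Figure D3:**
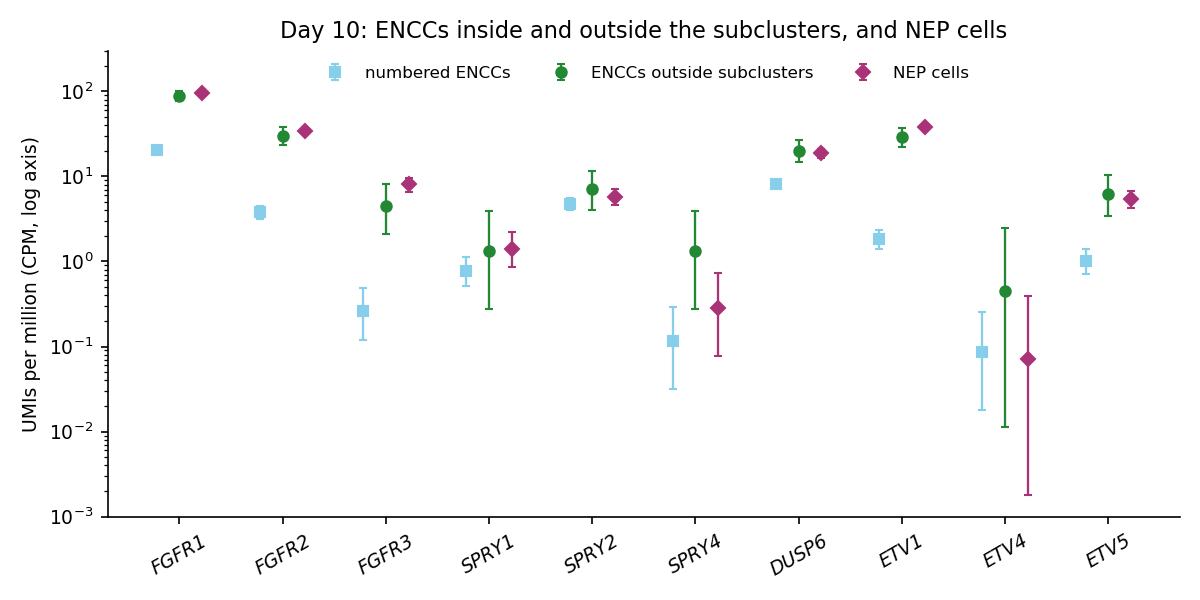
Level of each gene at day 10, in CPM on a log axis, in numbered ENCCs, in the 256 ENCCs outside the subclusters and in NEP cells; bars are exact 95% Poisson intervals. For the 3 receptors, DUSP6, ETV1 and ETV5 the ENCCs outside the subclusters sit near the NEP cells and above the numbered ENCCs.

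Among the day 10 types the receptors were highest in NEP cells, for FGFR1 together with NNE. FGFR1 ran from NEP (95.7 CPM, 90.6 to 101) over NNE (85.0 CPM) and CP (44.7 CPM) to ENCCs (24.4 CPM), and only NEP and NNE overlapped. FGFR2 was at 34.0 CPM (31.1 to 37.2) in NEP cells, above NNE (8.67 CPM), ENCCs (5.39 CPM) and CP (4.39 CPM), and among these 3 the intervals of neighbours overlapped. FGFR3 was at 8.05 CPM (6.63 to 9.68) in NEP cells and at 1.62 CPM or less in the other types.

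The response genes did not share 1 order at day 10. ETV1 was at 38.0 CPM (34.9 to 41.4) in NEP cells, 10.9-fold above ENCCs (8.97 to 13.3), with NNE between them at 9.21 CPM and CP, at 2.79 CPM, not separated from ENCCs. ETV5 was at 5.41 CPM in NEP cells and 4.08-fold above ENCCs (2.81 to 5.97). DGKG moved with it, at 9.83 CPM in NEP cells against 0.487 CPM in ENCCs, and its part in the ETV5 value was not tested. DUSP6 was at 18.8 CPM in NEP cells and 10.8 CPM in NNE, with overlapping intervals, and lowest in CP at 2.79 CPM. SPRY2 lay between 3.99 and 5.96 CPM in all 4 types and its neighbours all overlapped. SPRY1 was at 5.96 CPM in NNE (11 UMIs) and at 1.42 CPM or less elsewhere. SPRY4 and ETV4 did not exceed 7 UMIs in any day 10 type, so no order can be given for them.

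By the 2-fold rule 9915 genes passed the filter in NEP cells or ENCCs at day 10, of which 14.0% were higher and 2.78% lower in NEP cells. FGFR1, FGFR2, FGFR3, ETV1 and ETV5 were higher, 5 of the 7 members that passed the filter, and none was lower. DUSP6 lay just under the threshold at a fold of 2.11 (1.79 to 2.49), which is 1.00 on the log2 scale of CPM + 1, and SPRY2 was at 1.17 (0.890 to 1.53). Against the numbered ENCCs alone DUSP6 was 2.30-fold higher (1.94 to 2.73) and passed the rule, and ETV1 was 20.6-fold higher (15.9 to 27.2). The median log2 ratio of all genes was 0.18 and moved to -0.13 with TMM scaling, under which ETV5 kept a log2 ratio of 1.24 but fell below the filter of 5 CPM, and 10.1% of genes were higher and 5.66% lower.

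In the 104 day 15 cells labelled NEP, DUSP6 was at 161 CPM (139 to 186), SPRY2 at 55.8 CPM, SPRY1 at 49.7 CPM (37.6 to 64.4), ETV1 at 45.3 CPM and ETV4 at 37.5 CPM. SPRY1 was 28.9-fold above the ENCCs of the same library (20.5 to 40.5). DUSP6 was 5.18-fold above ENCCs (4.43 to 6.03), ETV4 9.92-fold (6.97 to 13.8) and ETV5 2.04-fold (1.43 to 2.82). FGFR1 was at 93.3 CPM (76.4 to 113) there, while FGFR2 was at 6.10 CPM from 7 UMIs. SPRY4 (6 UMIs) and FGFR3 (1 UMI) had intervals that overlapped those of ENCCs. These 104 cells were not compared with the day 10 NEP cells, because of the leading genes of the later cluster.

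CP1, 208 cells with NEUROD1, a neurogenic transcription factor of placodes, among their leading genes, had another profile. ETV5 was at 52.3 CPM (43.6 to 62.4), 3.22-fold above ENCCs (2.65 to 3.89), and ETV4 and ETV1 were 3.88-fold (2.63 to 5.57) and 2.24-fold (1.67 to 2.95) higher. DUSP6 went the other way, at 18.4 CPM against 31.1 CPM, and ENCCs were 1.69-fold higher (1.25 to 2.33). FGFR1 was at 59.0 CPM in CP1, and FGFR2 and FGFR3 gave 0 UMIs. That allows up to 1.26 CPM if 0 is taken to allow 3 UMIs, and up to 1.54 CPM by the exact interval. The 47 Mes cells held DUSP6 at 60.6 CPM (42.0 to 84.7) and ETV4 at 37.4 CPM, and the 43 CP2 cells held ETV4 at 49.8 CPM (30.4 to 76.8).

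**Figure D4:**
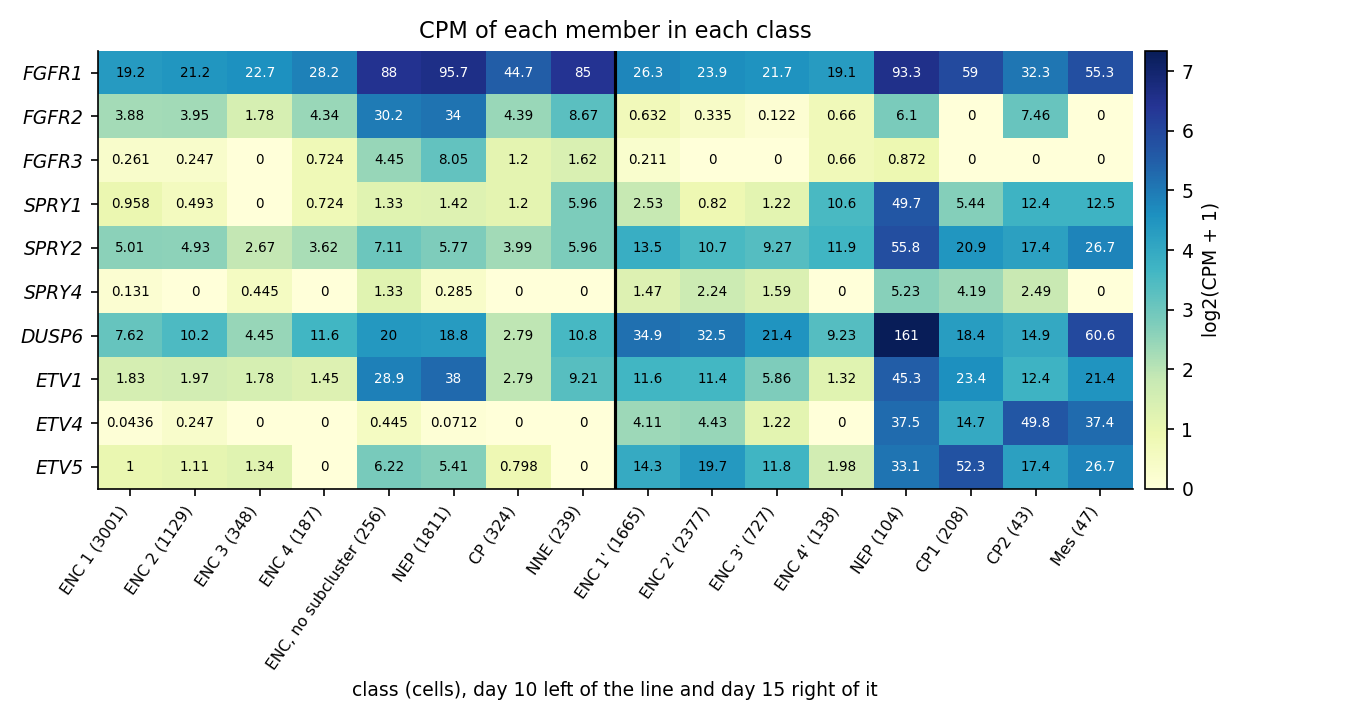
Level of each gene (rows) in each cell type and ENCC subcluster (columns, with the number of cells), day 10 left and day 15 right of the line; numbers are CPM and colour is log2(CPM + 1). ETV4 and SPRY4 reach at most 0.445 and 1.33 CPM at day 10, FGFR2 is near 0 in day 15 ENCCs, and the day 15 cells labelled NEP hold the darkest DUSP6 value at 161 CPM.

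Within the ENCCs of day 10, the subclusters ENC 2 and ENC 3 differed in the sum. The summed response genes lay between 10.7 CPM (6.84 to 15.9) in ENC 3 and 19.0 CPM (16.1 to 22.2) in ENC 2, with intervals apart, FGFR1 between 19.2 and 28.2 CPM and ETV1 between 1.45 and 1.97 CPM. DUSP6 was at 4.45 CPM in ENC 3 and at 10.2 CPM in ENC 2, with intervals that just overlapped.

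At day 15, ENC 1' and ENC 2' held nearly the same summed level, 82.4 CPM (78.4 to 86.6) and 81.9 CPM (78.5 to 85.4). ENC 3' was lower at 52.4 CPM (47.5 to 57.5), and ENC 4', with 138 cells, lower again at 35.0 CPM (26.2 to 45.7). In this sum all 4 lay above each numbered subcluster of day 10, but in ENC 4' 16 of the 53 UMIs were of SPRY1 and 18 of SPRY2.

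In ENC 4' the genes parted. DUSP6 was at 9.23 CPM (14 UMIs), within the range of the day 10 subclusters (4.45 to 11.6 CPM), and ETV1 gave 2 UMIs (1.32 CPM), which was not above any of them. In ENC 2' DUSP6 was at 32.5 CPM, 3.52-fold higher than in ENC 4' (2.09 to 6.47). ETV5 gave 3 UMIs (1.98 CPM) against 19.7 CPM in ENC 2', 9.98-fold lower (3.40 to 48.5). ETV4 gave 0 UMIs, which allows up to 1.98 CPM at 3 UMIs and up to 2.43 CPM by the exact interval, against 4.43 CPM. SPRY1 was instead higher in ENC 4', at 10.6 CPM (6.03 to 17.1) against 0.820 CPM, 12.9-fold (6.32 to 25.7), whereas SPRY2 (11.9 and 10.7 CPM) and FGFR1 (19.1 and 23.9 CPM) had overlapping intervals. In ENC 3', DUSP6, ETV1, ETV4 and ETV5 were all lower than in ENC 2', with ratios of 0.657, 0.512, 0.275 and 0.599, and intervals apart. ENC 2' and ENC 1' differed in ETV5 (19.7 against 14.3 CPM, fold 1.38, 1.19 to 1.61) and in SPRY1 (0.820 against 2.53 CPM). The subclusters were called on these same counts, so that these differences describe the clusters.

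**Figure D5:**
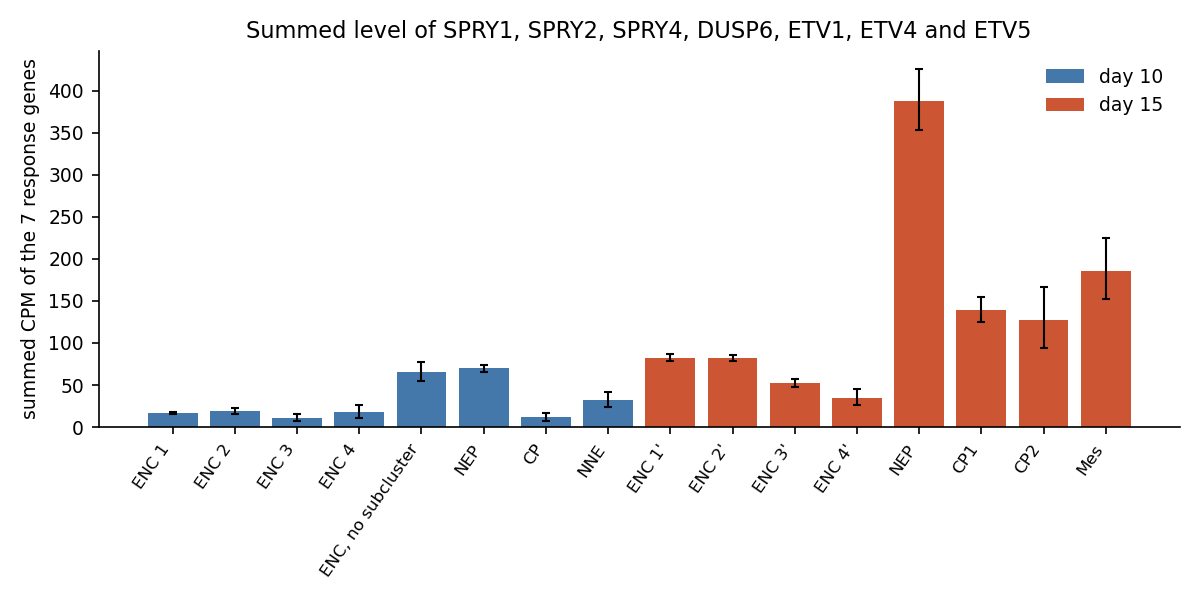
Summed CPM of the 7 response genes in each subcluster and cell type of both libraries, with exact 95% Poisson intervals; bars start at 0. The day 10 ENCC subclusters lie between 10.7 and 19.0 CPM and those of day 15 between 35.0 and 82.4 CPM, and the day 15 cells labelled NEP reach 388 CPM.

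By cell cycle phase, as the study called it from each cell's transcripts, the summed response genes of day 15 ENCCs were higher in cells called S or G2M than in those called G1. The sum was 62.4 CPM (58.7 to 66.2) in G1, 77.5 CPM (74.0 to 81.1) in S and 92.4 CPM (87.5 to 97.5) in G2M. ETV1 was at 6.67 CPM in G1 and 14.6 CPM in G2M, 2.19-fold higher (1.74 to 2.77), and ETV5 at 11.1 and 18.4 CPM, 1.66-fold (1.37 to 2.01). FGFR1 followed with 19.8 and 28.9 CPM, a fold of 1.46 (1.26 to 1.69), while for SPRY1, SPRY2, SPRY4 and ETV4 the intervals of G1 and G2M overlapped. Median depth differed between the phases too, with 9899.5 UMIs per cell in G1 and 13050.5 in G2M, and its part in these values was not tested.

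In day 10 ENCCs the sum was 21.1 CPM in G1, 20.1 CPM in S and 17.9 CPM in G2M, with overlapping intervals. ETV1 was at 5.01 CPM in G1 and 2.78 CPM in G2M, but in the numbered subclusters alone it was at 1.67 CPM (1.01 to 2.61) and 1.96 CPM (1.24 to 2.94). Taken in G1 cells only, the stage ratio of the sum was 2.95, and ETV1 had a log2 ratio of 0.35 and no longer passed the 2-fold rule. In the G1 cells of the numbered subclusters ETV1 was at 1.67 CPM at day 10 and 6.55 CPM (5.41 to 7.87) at day 15.

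The share of cells with at least 1 UMI was compared after thinning each cell to 3000 UMIs, which left out 2 day 10 ENCCs. DUSP6 was seen in 2.26% (1.86 to 2.71) of ENCCs at day 10 and 8.82% (8.04 to 9.64) at day 15, ETV5 in 0.447% (0.280 to 0.676) and 4.34% (3.79 to 4.94), and any response gene in 5.47% (4.85 to 6.14) and 19.7% (18.6 to 20.8). FGFR1 was seen in 6.57% (5.89 to 7.29) and 7.17% (6.47 to 7.93). Without thinning, any response gene was seen in 12.8% and 52.7% of ENCCs, at their unequal depths. In day 10 CP cells, whose median depth of 7438 UMIs was near that of the ENCCs, the thinned share was 1.24% (0.338 to 3.14) for DUSP6 and 0.929% (0.192 to 2.69) for FGFR2. The FGFR2 share of day 10 ENCCs, 1.77% (1.42 to 2.18), overlapped that value, and whether free RNA gave the FGFR2 UMIs of ENCCs was not tested. In single cells the members were seldom seen together. Over the 21 pairs of response genes the Pearson correlation of thinned counts across ENCCs lay between -0.01 and 0.06 at day 10 and between -0.02 and 0.07 at day 15. In counts this sparse that is no finding.

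The other genes of the pathway were taken from a fixed list of 70. In ENCCs 33 of them passed the filter, of which 8 were 2-fold higher and 2 lower at day 15, beside the 8.26% and 6.02% of all genes. None of the 18 secreted ligands passed it. FGF2 was at 3.11 CPM at day 10 and 2.35 CPM at day 15, which are transcripts and say nothing of the FGF2 in the medium. FGF18 was at 17.2 CPM (12.3 to 23.3) in day 15 CP1 cells and at 0.179 CPM in ENCCs, a gene chosen after its values were seen. The other receptors and coreceptors, FGFR4, FGFRL1, KL and KLB, were all under the filter in ENCCs.

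Of the 13 genes listed as other inhibitors 7 passed the filter and 3 were higher at day 15. DUSP4, a nuclear ERK phosphatase, was at 23.8 CPM (881 UMIs) at day 10 and 66.2 CPM (3695 UMIs) at day 15, 2.77-fold higher (2.58 to 2.99). SPRED1 and SPRED2, relatives of the Sproutys that act on RAS and RAF, were 2.48-fold (2.16 to 2.85) and 3.50-fold (2.87 to 4.28) higher. FLRT3, a membrane protein that binds FGF receptors, was grouped here by the list only and is not taken as an inhibitor. Its level was 54.8 CPM at day 10 and 27.9 CPM at day 15, within 2-fold on CPM + 1.

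Of the 14 other ERK-responsive genes 9 passed and they split. CCND1, the G1 cyclin D1, was 2.23-fold higher at day 15 (2.11 to 2.36), PHLDA1 3.62-fold (3.18 to 4.12) and SHISA2 7.65-fold (5.55 to 10.8). EGR1, an immediate early gene, was lower at day 15, with 4.39 CPM against 11.8 CPM at day 10. Of the 17 adaptors and kinases 16 passed, 14 of which were within 2-fold. HRAS and MAP2K2, which encodes MEK2, were the exceptions, higher at day 15 with 46.4 against 2.71 CPM and 32.7 against 4.68 CPM. ARAF (7.99 against 14.0 CPM) was lower at day 15 but within 2-fold on CPM + 1. FGF13, an intracellular relative of the FGFs that is not secreted, was lower at day 15, at 1.93 against 5.41 CPM.

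GC content moved with some of these values. Among the 8841 filtered genes with a GENCODE transcript, the 884 in the top decile of GC content (60.2% to 73.9%) held 19.7% that were 2-fold higher at day 15, against 3.95% to 9.50% in the other deciles, and their median log2 ratio was 0.04. The GC content of HRAS (65.8%), MAP2K2 (60.9%) and ETV4 (60.8%) lay in that range, and its part in their values was not tested. SPRY2, DUSP6, ETV1 and ETV5 lay between 38.1% and 48.6% GC, in deciles where 4.52% to 7.58% of genes were 2-fold higher.

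Between NEP cells and ENCCs at day 10, 34 of the 70 genes passed the filter, of which 8 were higher in NEP cells and 1 lower, beside the 14.0% and 2.78% of all genes. Of the 14 other ERK-responsive genes, 6 of the 11 that passed were higher in NEP cells. ETS2, an ETS factor, was the 1 that was lower, at 7.27 against 27.0 CPM, and both FGF11 (17.5 against 3.90 CPM) and FGF13 (13.6 against 5.41 CPM) were higher; these 3 were named after their values were seen.

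The genes whose level followed each member most closely were sought over 13 classes, the cell types and numbered subclusters of both libraries with at least 50 cells, among 9950 genes. The 13 points share 2 libraries and their depth, so the correlations describe these classes only, and the choice of genes depended on the measure. Of the 20 genes found, 2 for each member, 4 were also found with Spearman's rho and 10 with a pseudocount of 5 CPM. DUSP6 was nearest to PRKRIR (r = 0.95) and TRIOBP (0.93), ETV1 to MAN1A2 (0.94) and DDAH1 (0.92), and ETV5 to LINC00467 (0.96) and TCEB2 (0.96). ETV4 was nearest to CTXN1 and SPRY4 to MLYCD, both with r = 0.96, and SPRY2 to UBA6-AS1 (0.96) and SPRY1 to CHST11 (0.95). FGFR1 was nearest to RP11-390F4.6 (0.97) and DYNLT3 (0.96), FGFR2 to GABRB2 (0.96) and FGFR3 to CRYAB (0.96). Among the members themselves SPRY4 and ETV4 had the highest correlation (0.96) and FGFR2 and ETV5 the lowest (-0.43).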

How the data were processed

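Count matrices and cell metadata of 1 day 10 and 1 day 15 library were used. The authors deposited raw UMI counts for 9627 and 6320 cells, without normalization, and metadata per cell that also give mitochondrial and ribosomal content in percent. The study's methods name kallisto/bustools and Seurat, while the submitters' processing notes name Cell Ranger, Seurat 4.0.4 and GRCh38; the annotation is not given in the sources used here. Cells marked as low quality in the deposited metadata stayed out of all classes.

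For each class, gene counts were added up over its cells and divided by the class total (CPM). Log2 ratios used CPM + 1, so that changes of low genes are understated, and a call needed 2-fold and 5 CPM in 1 of both classes. With 1 library per group no test was run. Sums carry exact Poisson intervals, folds exact conditional binomial intervals and shares Clopper-Pearson intervals, all at 95% and for counting error only, and a count of 0 was taken to allow 3 UMIs. The rule was also run on simulated Poisson counts that held no variation between libraries, so that run cannot show how the rule behaves under such variation. Similar genes were the 2 with the highest Pearson r of log2(CPM + 1) among genes with at least 10 CPM in 1 class, and other pathway genes the up to 4 with the largest absolute ratio per subgroup. The members, lists and markers were chosen with earlier results of these data known. The octamers TCAATGAA and TCAATGGA, the GC check, the marker sums and the phases within numbered subclusters were added after seeing the data. Alternatives were TMM scaling (edgeR 4.0.16 under R 4.3.3), totals without mitochondrial and ribosomal protein genes, pseudocounts of 0.1 and 5 CPM, no filter or 20 CPM, the mean of per-cell CPM, numbered subclusters only, G1 cells only, no cells of the top 5% by UMIs, and thinning to 5000 UMIs. Python 3.11.15, numpy 2.4.6, scipy 1.17.1 and pandas 2.3.3 were used.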

Additional observations from a re-analysis of the deposited data

How the results depend on the processing

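No paired analysis was possible because each group has 1 library, and for the same reason no replicate could be left out. No log2 ratio of a member called in either direction changed sign under an alternative. Of the 80 log2 ratios of the members recomputed for day 15 over day 10 ENCCs, 77 kept their direction, and of the 80 for NEP cells over ENCCs 78 did. The number of members 2-fold higher in day 15 ENCCs was 2 (DUSP6 and ETV5) with a pseudocount of 5 CPM and 1 (DUSP6) with a filter of 20 CPM, and the number lower was 0 with either of these and in the numbered subclusters. With the stricter filter only DUSP6 and FGFR1 could be counted, and FGFR2 lay under 5 CPM in the numbered subclusters. The number of members higher in NEP cells was 5 by the main rule and 3 with the filter of 20 CPM. It was 4 with TMM scaling or the pseudocount of 5 CPM, where ETV5 was not counted. It was 6, with DUSP6, for the pseudocount of 0.1 CPM, the mean of per-cell CPM, numbered ENCCs, and no top 5% cells. In G1 cells it was 5, with DUSP6 and without ETV5. The summed stage ratio of the response genes was 4.41 with TMM scaling, 4.55 in the numbered subclusters and 2.95 in G1 cells. The G1 ratio includes ENCCs outside the numbered subclusters, and what lowered it was not tested. In G1 cells of the numbered subclusters the sums were 15.3 CPM at day 10 and 61.9 CPM at day 15. Over all genes, the 765 higher and 557 lower at day 15 became 478 and 276 with the pseudocount of 5 CPM, 391 and 220 with the filter of 20 CPM, and 985 and 851 with no filter. The 1391 genes higher and 276 lower in NEP cells became 882 and 173, 589 and 153, and 2151 and 370 under the same settings, 997 and 557 with TMM scaling, and 1581 and 517 with totals without mitochondrial and ribosomal protein genes. Levels under about 3 UMIs of a class, 0.0812 CPM in day 10 ENCCs and 1.98 CPM in ENC 4', could not be told from 0.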
